A study of Mus musculus with 36 samples.

Results

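The cytosolic ribosomal proteins are the structural proteins of the ribosomes that translate messenger RNA in the cytoplasm. Their genes were taken here as every gene with a single annotated symbol of the form Rpl or Rps, with or without a p, followed by a number and an optional letter or paralog ending, which leaves out the ribosomal S6 kinases and the mitochondrial ribosomal proteins. The rule found 47 of the 12393 genes with a value, of which 26 belong to the large subunit (Rpl) and 21 to the small subunit (Rps). By their names, 41 are core proteins and 6 are paralogs, second copies of a core gene (Rpl3l, Rpl7l1, Rpl22l1, Rpl39l, Rps27l and Rps4l). A further 28 ribosomal protein symbols occurred only on probe sets annotated with several genes, Rpl3 and Rplp1 among them, and were not analysed here.

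The data are 36 Affymetrix arrays of left ventricular RNA, each from a different mouse. In transverse aortic constriction (TAC) a band narrows the aorta, so that the left ventricle has to pump against a higher pressure. Mice given TAC or a SHAM operation were sampled 8 weeks later at ZT03, ZT07, ZT11, ZT15, ZT19 or ZT23. There were 12 groups, 3 mice in each, which the labels call biological replicates, and no strain, sex, age or light schedule was given. The deposited values are on a log scale, taken as log2, and each probe set has a median of 0 within the 18 SHAM arrays and again within the 18 TAC arrays.

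That centring decides what can be asked. Whether ribosomal protein mRNA was higher or lower after TAC cannot be estimated, and the labelled tissue cannot be checked against the level of its marker genes. What the values keep is how SHAM hearts, and TAC hearts, move through the day, the spread between mice of a group, and the way genes move together from mouse to mouse are kept. The design asks how the daily course of the loaded heart compares with that of the SHAM heart. With 3 arrays a group, their number limits the precision. In whole tissue, fewer cells of a type and less RNA per cell cannot be told apart.

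Ribosomal proteins assemble with ribosomal RNA in near equal numbers, so cells make them in balance. Most of their mRNAs begin with a run of pyrimidines at the cap, the 5′ terminal oligopyrimidine (TOP) tract, through which mTOR signalling and the protein Larp1 set how strongly they are translated. Growth of heart muscle cells under load is known to bring more ribosomes, and in liver the translation of TOP mRNAs is known to follow the daily feeding rhythm, largely without matching changes of mRNA level. Arrays such as these see only the mRNA level.

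The tract was looked for in the 30 bases around the annotated start of each gene, 15 before it and 15 from it on, in RefSeq sequence of GRCm38.p6. A C followed by at least 4 bases that are C or T, on the coding strand and starting within 5 bases of any annotated start of the gene, was counted. Of the 47 members, 41 had a start in the table, and 20 of these (48.8%) held such a run, against 21.2% of all 27025 genes with a start, 24.6% of 65 mitochondrial ribosomal proteins and 18.2% of 11 proteasome core subunits. Among 14 genes of other TOP mRNAs the share was 50%. A match is a description of the letters and depends on where the start is annotated. The windows below belong to members whose values are described further on, with the run in capitals where there is one.
Rps9 (chr7:3704026-3704055, plus strand): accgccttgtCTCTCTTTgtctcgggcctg
Rpl13a (chr7:45128731-45128760, minus strand): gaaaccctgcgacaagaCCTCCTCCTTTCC
Rps6 (chr4:86857353-86857382, minus strand): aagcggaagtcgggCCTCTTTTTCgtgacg
Rpl27a (chr7:109519180-109519209, plus strand): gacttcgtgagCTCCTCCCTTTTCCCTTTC
Rplp2 (chr7:141447636-141447665, plus strand): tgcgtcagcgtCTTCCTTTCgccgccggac
Rpl22l1 (chr3:28805493-28805522, plus strand): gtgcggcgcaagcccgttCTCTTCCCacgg
Rplp0 (chr5:115559452-115559481, plus strand): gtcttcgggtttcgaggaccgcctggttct
Rpl7l1 (chr17:46782642-46782671, minus strand): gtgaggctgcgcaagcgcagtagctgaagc
Rpl3l (chr17:24727811-24727840, plus strand): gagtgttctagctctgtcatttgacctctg

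Rpl3l and Rpl7l1 have no such run in the windows shown, while Rpl22l1 has one. Rpl3l is annotated with a second start (chr17:24732670-24732699), which has none either.

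Some arrays stood apart by genes of another tissue. In SHAM ZT11 replicate 3 the mean of the thymocyte markers was 1.97, against at most 0.13 in the other SHAM arrays, and in TAC ZT23 replicate 1 the mean of airway and lung markers was 1.01, with 0.72 in the next TAC array. White adipocyte markers varied over a wide range in both surgeries, with a mean of 1.49 in the same SHAM ZT11 array and above 1 in 3 TAC arrays, ZT11 replicate 3 (1.54), ZT15 replicate 3 (1.44) and ZT19 replicate 2 (1.21). These values are relative, so whether a marker is absent elsewhere cannot be read from them. The 2 arrays with thymus or airway markers above 1 are left out where their effect is given below, and the 3 TAC arrays with adipocyte markers where leaving them out as well ends a call, a choice made after the data were seen.

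The array with thymocyte markers, in which adipocyte markers were high too, was also the SHAM array with the most ribosomal protein mRNA. The mean of the 41 core members was 0.21 in SHAM ZT11 replicate 3, while the next SHAM array stood at 0.03 and the lowest, SHAM ZT03 replicate 3, at -0.10. Of the 47 members, 33 (70.2%) had their highest SHAM value in that array, as did 11.3% of all genes. Rps19 and Rpl13a show it clearly: at SHAM ZT11, Rps19 was at -0.32, -0.02 and 0.49, and Rpl13a at -0.17, -0.04 and 0.46. The part of thymus or fat RNA in this array's ribosomal protein values was not tested.

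In TAC the core mean ran from -0.15 in ZT03 replicate 1 to 0.09 in ZT15 replicate 3. Its spread was wide at several times: the 3 TAC mice of ZT03 stood at -0.15, -0.11 and 0.04, and those of ZT15 at -0.08, 0.01 and 0.09. The TAC standard deviations ran from 0.03 at ZT19 to 0.10 at ZT03 (n = 3). In SHAM, outside ZT11, they ran from 0.01 at ZT15 to 0.04 at ZT03 (n = 3), so the ranges overlapped. At SHAM ZT11 the standard deviation was 0.15.

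**Figure D1:**
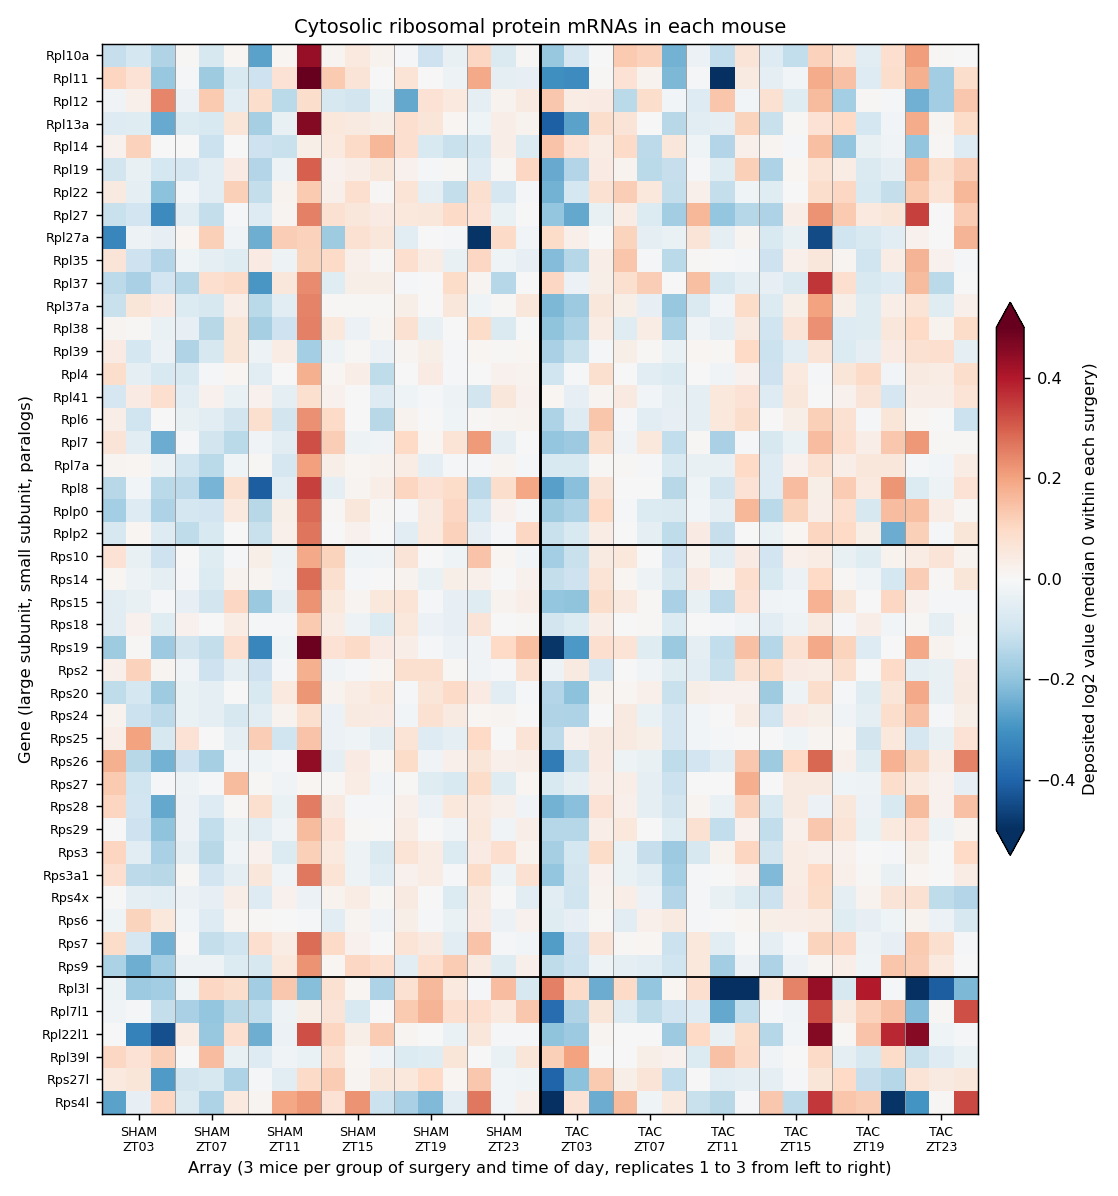
Deposited log2 value (colour, median 0 within each surgery, drawn from -0.5 to 0.5 with values beyond in the end colours) of the 47 ribosomal protein genes (rows: large subunit, small subunit, paralogs) in the 36 arrays (columns, 3 per group). SHAM ZT11 replicate 3 is high in most rows, TAC ZT03 replicates 1 and 2 are low in most, and the 6 paralogs are the rows at the bottom.

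**Figure D2:**
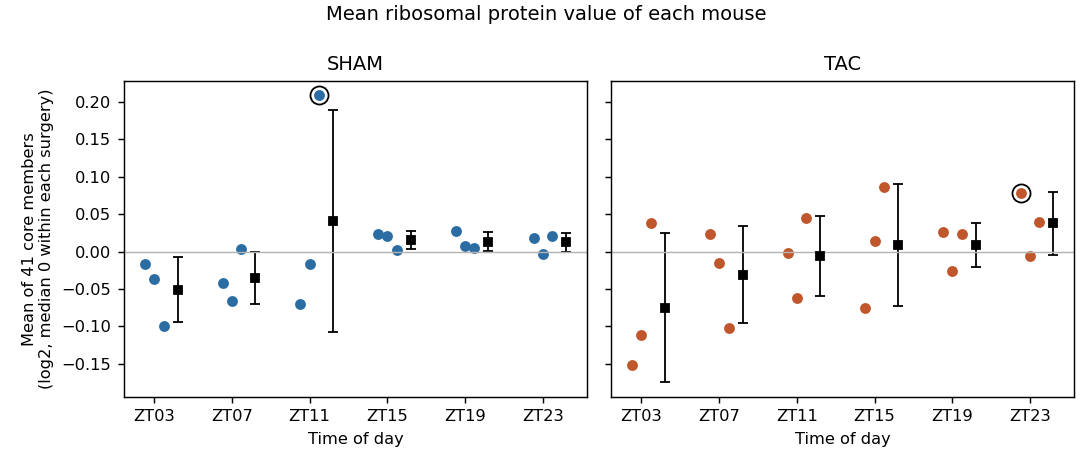
Mean log2 value of the 41 core members in each mouse (points) by time of day, with the mean and standard deviation of the 3 mice of a group (square and bar); rings mark the 2 arrays with thymus or airway markers. The ringed SHAM array at ZT11 stands at 0.21, above the other 17 SHAM arrays.

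The first question was whether ribosomal protein mRNA followed the time of day. Of the 47 members, 1 passed for a 24 h rhythm in SHAM (Rps9) and 0 in TAC, by limma's moderated F-test at an adjusted p of 0.05 over all genes. Over all genes, 5.58% passed in SHAM and 4.35% in TAC. With no adjustment for the number of genes, a p under 0.05 was reached by 4 members in the SHAM arrays (18.8% of all genes) and by 2 in the TAC arrays (19.8%). The members' shares were thus no higher than those of all genes. The fitted amplitudes, measured from the mean to the peak, had a median of 0.05 in SHAM and 0.04 in TAC, and 43 and 41 of the 47 were under 0.1. Over all genes the median was 0.05 in both surgeries, and the median standard error of a member's amplitude was 0.03.

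Rps9 encodes a small subunit protein near the mRNA entry of the ribosome. In SHAM its values were -0.16, -0.24 and -0.17 at ZT03, -0.02, -0.03 and -0.07 at ZT07, and -0.08, 0.05 and 0.22 at ZT11. They were 0.01, 0.105 and 0.09 at ZT15, -0.06, 0.08 and 0.13 at ZT19, and 0.05, -0.06 and 0.03 at ZT23. All 3 mice of ZT03 lay below every other SHAM mouse, and the later groups overlapped. The fitted SHAM curve had an amplitude of 0.11 ± 0.03 (SE), a peak at ZT15.3 ± 0.9 h and a fold of 1.17 from trough to peak (limma, adjusted p = 0.0299). In TAC the amplitude was 0.07 ± 0.03 with a peak at ZT20.3 (adjusted p = 0.299), and the difference between the rhythms did not pass (unadjusted p = 0.0209, adjusted p = 0.783).

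The Rps9 call rests on an average of 3 probe sets that did not move together, their mean pairwise correlation around the group means being -0.184. The SHAM amplitude was 0.21 for the probe set with the x suffix, 0.10 for the one with the s suffix and 0.03 for the one without a suffix, and none of them passed by itself (adjusted p from 0.123 to 0.860). Leaving out 1 array at a time, 30 of 36 fits kept the call. It was lost without replicates 1, 2 or 3 of SHAM ZT03, replicate 2 of SHAM ZT15 and replicates 2 or 3 of SHAM ZT19 (adjusted p up to 0.121). Without the 2 arrays with thymus or airway markers Rps9 and Rpl7l1 passed in SHAM.

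Rpl7l1, a paralog of the large subunit protein Rpl7, had the largest fitted amplitude of all members in both surgeries. In SHAM its values were -0.16, -0.20 and -0.14 at ZT07, the group with the lowest mean. At ZT19, the group with the highest mean, they were 0.13, 0.17 and 0.08. The SHAM amplitude was 0.13 ± 0.04 with a peak at ZT19.7 (limma, adjusted p = 0.104), and the TAC amplitude 0.14 ± 0.04 with a peak at ZT18.4 (adjusted p = 0.0662), folds of 1.20 and 1.22 from trough to peak. In TAC the mice of a group scattered more: at ZT03 they stood at -0.38, -0.15 and 0.06, and at ZT23 at -0.22, 0.01 and 0.32. Of 36 fits that left out 1 array, the TAC curve passed in 2 and the SHAM curve in 0. The 2 were without TAC ZT23 replicate 1, the array with airway markers (adjusted p = 0.0238), and without TAC ZT03 replicate 3 (adjusted p = 0.0379). In the other fits the adjusted p in TAC reached 0.108. Without the arrays with thymus, airway or adipocyte markers the TAC curve did not pass. The 2 probe sets of Rpl7l1 correlated at 0.238 around the group means.

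Among the other members of the large subunit, Rpl27 came next in the order of p-values. Its SHAM amplitude was 0.11 ± 0.04 (adjusted p = 0.213) and its TAC amplitude 0.12 ± 0.04 (adjusted p = 0.170). The stalk proteins, which bind the elongation factors that drive translation, did not pass: Rplp0 ran from -0.17 to 0.29 in SHAM with an amplitude of 0.08 ± 0.03 (adjusted p = 0.306), and Rplp2 from -0.13 to 0.27 with 0.05 ± 0.03 (adjusted p = 0.598). In TAC they ran from -0.18 to 0.16 and from -0.25 to 0.12, with amplitudes of 0.05 ± 0.03 and 0.03 ± 0.03. Both had their highest SHAM value in the array with thymocyte markers. Rps20, a small subunit protein, had a SHAM amplitude of 0.08 ± 0.03 (adjusted p = 0.222), and Rps6, the subunit protein that S6 kinase phosphorylates, 0.02 ± 0.02 in SHAM and 0.03 ± 0.02 in TAC. The paralog Rpl22l1 had the third smallest p in TAC, with an amplitude of 0.14 ± 0.06 (adjusted p = 0.276).

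No member differed in rhythm between the surgeries at an adjusted p of 0.05 (limma), where 0.0484% of all genes did, and 1 member, Rps9, had an unadjusted p under 0.05 (6.27% of all genes). Next by p-value were Rpl27a (unadjusted p = 0.064, adjusted p = 0.808) and Rps6 (unadjusted p = 0.0774, adjusted p = 0.825). A test of the 6 times without a curve gave 0 members in SHAM (3.37% of all genes) and 1 in TAC, Rpl3l (5.26% of all genes). At an unadjusted p of 0.05 these counts were 1 (13.2% of all genes) and 3 (20.3%). No member passed for a difference in time course between the surgeries (0.0161% of all genes), with Rpl3l the 1 member at an unadjusted p under 0.05 (0.0214, adjusted p = 0.709, limma), a level that 5.57% of all genes reached.

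Although hardly any curve passed, the fitted peaks of the core members fell in the same part of the day. Of the 41 core members, 34 had a fitted peak between ZT12 and ZT24 in SHAM, where 36.1% of all genes did, and 36 in TAC, where 46.6% did. This was not particular to them. In SHAM, 14 of 14 proteasome core subunits, 70 of 74 mitochondrial ribosomal proteins and 56 of 65 respiratory chain subunits peaked there. In TAC these were 13, 73 and 60. A curve through the mean of the core members peaked at ZT15.6 in SHAM and at ZT17.8 in TAC, its amplitude being 0.04 in each. The members are not independent, since they were read from the same arrays and most rise and fall together. Without the 2 arrays with other tissue the counts of core members were 34 and 36, and the peak of their mean lay at ZT18.5 in SHAM and ZT16.6 in TAC.

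The counts differed by the kind of probe set. Affymetrix marks a probe set with a, s or x where its probes also match other transcripts of the same gene, other genes, or unrelated sequences, and ribosomal protein genes have many near-identical pseudogene copies in the genome. Of the 98 member probe sets, 28 had no suffix, 28 an a, 2 an s and 40 an x. In SHAM the peak lay between ZT12 and ZT24 for 14 of 28 without a suffix, 27 of 28 with an a and 35 of 40 with an x, and in TAC for 14, 26 and 34. Over all probe sets of the array the SHAM shares were 35.3% without a suffix, 45.3% with an a and 50% with an x, and the TAC shares 44.2%, 55.3% and 58.4%. Without the 2 arrays with thymus or airway markers the members' counts were 15, 27 and 35 in SHAM and 14, 26 and 35 in TAC. The difference between kinds of probe set was not tested.

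With the probe sets without a suffix alone, 19 core members were left, of which 9 peaked between ZT12 and ZT24 in SHAM and 8 in TAC. The curve through their mean was nearly flat, its amplitude being 0.0054 (SHAM) and 0.0067 (TAC). Which transcripts the probe sets with a suffix read was not tested, and the values of members measured only by such probe sets are uncertain for that reason. Of the 22 members with several probe sets, the probe sets of 9 had a mean correlation under 0.3, the lowest being Rps4x at -0.338 and the highest Rpl7 at 0.806.

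**Figure D3:**
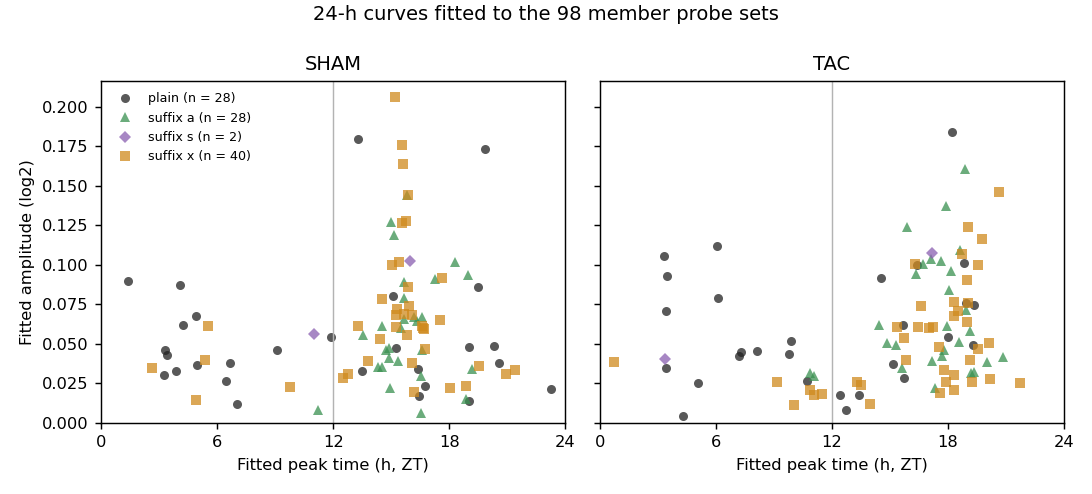
Fitted amplitude (log2) against fitted peak time (h) of the 98 probe sets of the members in SHAM and in TAC, by the suffix of the probe set; the vertical line marks ZT12. Probe sets with an a or x suffix crowd to the right of the line, while the 28 without a suffix lie 14 to each side in both surgeries.

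From mouse to mouse the core members moved together. Their mean pairwise correlation around the group means was 0.386 over the 18 SHAM mice and 0.445 over the 18 TAC mice, against 0.016 and 0.017 for all genes. These correlations describe genes on the same arrays, with array-wide effects included. When each array was centred on its median they were 0.482 and 0.488. Without SHAM ZT11 replicate 3 the SHAM value fell to 0.145, and without TAC ZT23 replicate 1 the TAC value was 0.461. Small subunit members were at 0.428 and 0.516, and large subunit members at 0.371 and 0.371. Without the 2 arrays these were 0.225 and 0.534 for the small subunit and 0.105 and 0.388 for the large.

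Other large complexes did likewise in these hearts. Proteasome core subunits were at 0.230 in SHAM and 0.583 in TAC, mitochondrial ribosomal proteins at 0.214 and 0.465, and respiratory chain subunits at 0.179 and 0.558. Without the array with thymocyte markers the SHAM values were 0.202, 0.228 and 0.165 in that order, each above the 0.145 of the core members. Without the array with airway markers the TAC values were 0.615, 0.479 and 0.57, against 0.461 for the core members. The differences between these lists were not tested. The 6 paralogs stood at 0.071 in SHAM and 0.094 in TAC, below the core members and above all genes (0.016 and 0.017). Without the arrays with thymocyte or airway markers the paralogs were at 0.074 and 0.136, against 0.009 and 0.016 for all genes.

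Single members followed the rest to very different degrees. Over all 36 arrays Rpl13a, which besides its place in the large subunit is known as a component of an inflammation-linked translation silencing complex, correlated at 0.921 with the mean of the other members, and Rps19, a small subunit protein mutated in Diamond-Blackfan anaemia, at 0.898. Lowest were Rpl12, a protein at the base of the stalk, at -0.185, and the paralog Rpl39l, known from the testis, at -0.140. Rpl3l was at -0.122, Rpl27a at -0.104 and Rps6 at 0.022, these 3 being singled out after their values were seen. Without the 2 arrays with other tissue Rpl13a was at 0.871, Rps19 at 0.835, Rpl12 at -0.329, Rpl39l at -0.174, Rpl3l at 0.008 and Rpl27a at -0.277. Rpl27a was low in a few single arrays, at -0.33 in SHAM ZT03 replicate 1, -0.49 in SHAM ZT23 replicate 1 and -0.45 in TAC ZT15 replicate 3, and its 2 probe sets correlated at 0.115.

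4 paralog pairs were measured on both sides, giving 8 correlations in the 2 surgeries, adjusted together. Rpl22 and Rpl22l1 rose and fell together in SHAM. At SHAM ZT03, Rpl22 was at 0.04, -0.05 and -0.21 and Rpl22l1 at 0.00, -0.34 and -0.44 in the same 3 mice. At SHAM ZT11 they were at -0.12, 0.02 and 0.13 and at -0.25, -0.03 and 0.32. Over 18 SHAM mice Pearson's r was 0.776 and Spearman's rho 0.789 (permutation test, two-sided, p = 0.00016 for each, adjusted p = 0.00128). Without the 2 mice farthest from the median of Rpl22, r was 0.580.

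In TAC the same pair had r = 0.379 and rho = 0.451 (permutation test, adjusted p = 0.241 and 0.124), and the difference between the surgeries was not tested. Both genes also followed the mean of the other members, at 0.790 for Rpl22 and 0.739 for Rpl22l1. Leaving out the mice of replicate number 3 ended the SHAM call (r = 0.640 over 12 mice, permutation test, adjusted p = 0.101), and without the array with thymocyte markers it held (r = 0.731, permutation test, adjusted p = 0.00304).

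Rpl7 and Rpl7l1 had r = 0.530 in SHAM and 0.522 in TAC (permutation test, adjusted p = 0.0684 for both), with rho = 0.666 and 0.569 (adjusted p = 0.013 and 0.0398). Taken as deviations from the group means, rho was 0.428 and 0.393, and neither passed (permutation test, adjusted p = 0.285 for both). Without the 2 mice farthest from the median of Rpl7, r was 0.583 and 0.686. Without the array with thymocyte markers in SHAM and the one with airway markers in TAC, r was 0.603 and 0.755 (permutation test, adjusted p = 0.0247 and 0.00304). Rps27 and Rps27l, the latter a p53 target, had r = -0.0926 and rho = 0.0258 in SHAM, and 0.304 and 0.312 in TAC. For Rpl39 and Rpl39l r was -0.149 and rho -0.280 in SHAM, and -0.201 and -0.127 in TAC. None of these 4 relations passed (permutation test, adjusted p of r from 0.339 to 0.713).

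The second question was whether TAC mice differed more from each other than SHAM mice. No member passed a Levene-type comparison of absolute deviations from the group means (limma, adjusted p of 0.05), where 1.61% of all genes did (1.57% with the larger deviations in TAC and 0.0403% with the smaller). On simulated data this comparison made more false calls than its threshold allows, so its p-values are too small. At an unadjusted p of 0.05 there were 6 members, and 18.9% of all genes. The count of members with a higher standard deviation in TAC turned on the arrays with other tissue: it was 22 of 47 with all arrays and 40 of 47 without the 2 arrays with thymus or airway markers. Over all genes the share was 71.9% and 77.4%. As log2 of the TAC over the SHAM standard deviation, the median was -0.03 over the members with all arrays, against 0.29 for all genes, and 0.43 without the 2 arrays, against 0.39. The mean absolute deviation, less moved by a single array, was higher in TAC for 34 of 47 members and 72.8% of all genes.

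The 6 paralogs all had the higher standard deviation in TAC, with and without those arrays. Of the 41 core members 16 did with all arrays and 34 without the 2, and of all genes 71.9% and 77.4%. The difference between paralogs and core members was not tested. Rpl7l1 had the highest ratio, 0.06 in SHAM against 0.17 in TAC (log2 ratio 1.59, limma, adjusted p = 0.111). For Rpl3l it was 0.12 against 0.28 (log2 ratio 1.26, adjusted p = 0.0563) and for Rps4x, the X-linked copy of a small subunit protein, 0.04 against 0.08 (log2 ratio 1.01, adjusted p = 0.140). For Rpl3l the adjusted p was 0.383 with 1 mean deviation per group and 0.996 with deviations from group medians (limma). At the other end were Rpl8, with 0.18 in SHAM and 0.11 in TAC (log2 ratio -0.76), Rpl27a with 0.18 and 0.11 (log2 ratio -0.72) and Rps25 with 0.09 and 0.07 (log2 ratio -0.45). Rpl8 was at -0.41, -0.06 and 0.34 at SHAM ZT11, the last value being the array with thymocyte markers. Without the 2 arrays the log2 ratio was -0.22 for Rpl8, -0.69 for Rpl27a and -0.46 for Rps25, and 1.51 for Rpl7l1, 1.30 for Rpl3l and 0.69 for Rps4x.

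**Figure D4:**
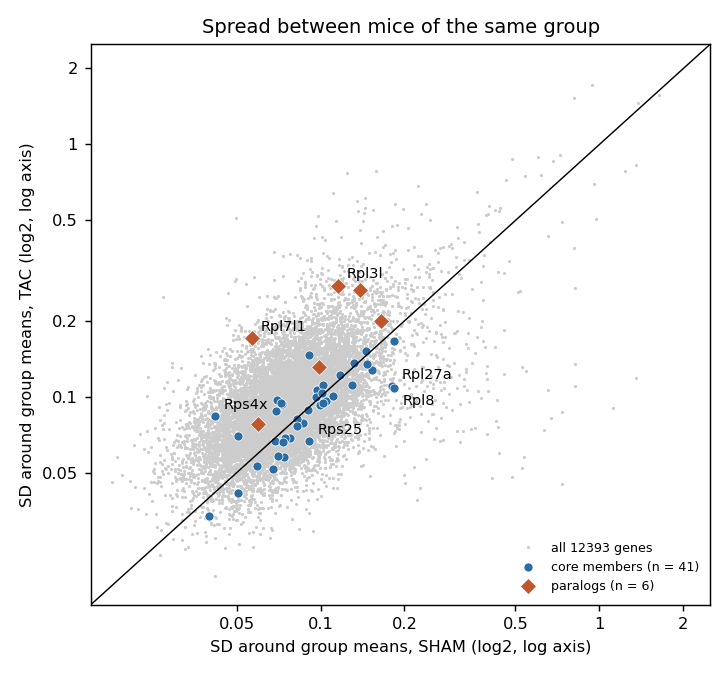
Standard deviation around the group means in TAC against that in SHAM (log2 units, both axes logarithmic) for all 12393 genes (grey), the 41 core members (circles) and the 6 paralogs (diamonds), with the line of equal spread. The paralogs lie above the line, as do 71.9% of all genes. Of the 41 core members, 25 lie below it when the SHAM array with thymocyte markers is included.

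Rpl3l was the 1 member that passed a test in TAC. It encodes a paralog of Rpl3, a protein beside the peptidyl transferase centre, and is made almost only in heart and skeletal muscle, where it replaces Rpl3 in part of the ribosomes. Its TAC values were 0.25, 0.09 and -0.25 at ZT03, 0.09, -0.19 and 0.01 at ZT07, and 0.08, -0.79 and -0.60 at ZT11. They were 0.05, 0.25 and 0.43 at ZT15, -0.08, 0.40 and -0.01 at ZT19, and -0.69, -0.41 and -0.22 at ZT23. All 3 mice of ZT23 and 2 of ZT11 were low, all of ZT15 were above 0, and within ZT11 the mice lay far apart. In SHAM all 18 mice lay between -0.21 and 0.16.

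The TAC group means of Rpl3l ranged from -0.44 ± 0.24 (SD, n = 3) at ZT23 and -0.44 ± 0.46 at ZT11 to 0.24 ± 0.19 at ZT15, and the test over the 6 TAC times passed (limma, adjusted p = 0.0163). This course did not follow a 24 h curve, the amplitude being 0.10 ± 0.09 (adjusted p = 0.746). The TAC groups also differed in the mean of Myh7, a gene described below, and its part in this course was not tested. The call was kept in each of 36 fits that left out 1 array, with the highest adjusted p, 0.0474, without TAC ZT23 replicate 1, the array with airway markers, where Rpl3l stood at -0.69. The fit over both surgeries uses 1 spread per gene, and Rpl3l spread less in SHAM. Without the 5 arrays with thymus, airway or adipocyte markers above 1 the call was lost (adjusted p = 0.317). Of the 3 TAC arrays with adipocyte markers, ZT11 replicate 3 was low in Rpl3l, at -0.60, and the others high, at 0.43 and 0.40, and the part of fat in these values was not tested. With the 18 TAC arrays alone the call was lost (adjusted p = 0.240), and it was lost without replicate number 2 (adjusted p = 0.531) or 3 (adjusted p = 0.105).

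The TAC mice also differed in how far they expressed Myh7, the slow myosin of the fetal programme that is known to come back under load, so members were set against the Myh7 value of each TAC mouse around its group mean. Among mice of 1 group this deviation ran from -1.11 to 1.03. Rpl3l was low where Myh7 was high. The 3 TAC mice with the highest Myh7 deviations, at 1.03, 0.96 and 0.64, had Rpl3l deviations of -0.18, -0.28 and -0.35, and the 3 with the lowest, at -1.11, -1.06 and -0.85, had 0.19, 0.22 and 0.52. The deviations had opposite signs in 13 of the 18 mice. The TAC group means of the genes had opposite signs at every time. From ZT03 to ZT23, those of Myh7 were -0.64, 0.17, 0.53, -0.84, -0.86 and 1.38. Their standard deviations ran from 0.31 at ZT07 to 1.01 at ZT03. The group means of Rpl3l were 0.03, -0.03, -0.44, 0.24, 0.10 and -0.44. The part of Myh7 in the time course of Rpl3l was not tested.

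The slope of Rpl3l was -0.27 ± 0.05 (SE) per log2 unit of Myh7 (limma, adjusted p = 0.00303), which is a factor of 0.827 in Rpl3l for each doubling of Myh7. Of the 47 members Rpl3l alone passed. Over all genes 3.43% passed, 1.63% with a negative and 1.8% with a positive slope, and Rpl3l stood at place 110 by p-value. The slope lay between -0.31 and -0.21 in the 36 fits that left out 1 array, each with an adjusted p under 0.05. At an unadjusted p of 0.05 there were 3 members and 15.3% of all genes. With Myh7 taken without time means, the slope of Rpl3l was -0.29 (limma, adjusted p = 2.8e-07). The slope was -0.27 without the array with airway markers (adjusted p = 0.00272), -0.27 without the arrays with adipocyte markers too (adjusted p = 0.0177) and -0.28 with the atrial marker mean as a covariate (adjusted p = 0.00161). The call was lost under quantile normalization (-0.24, adjusted p = 0.159) and in the fits with 2 mice a group, without replicate number 1 (-0.22, adjusted p = 0.298), 2 (-0.25, adjusted p = 0.0633) or 3 (-0.35, adjusted p = 0.118).

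**Figure D5:**
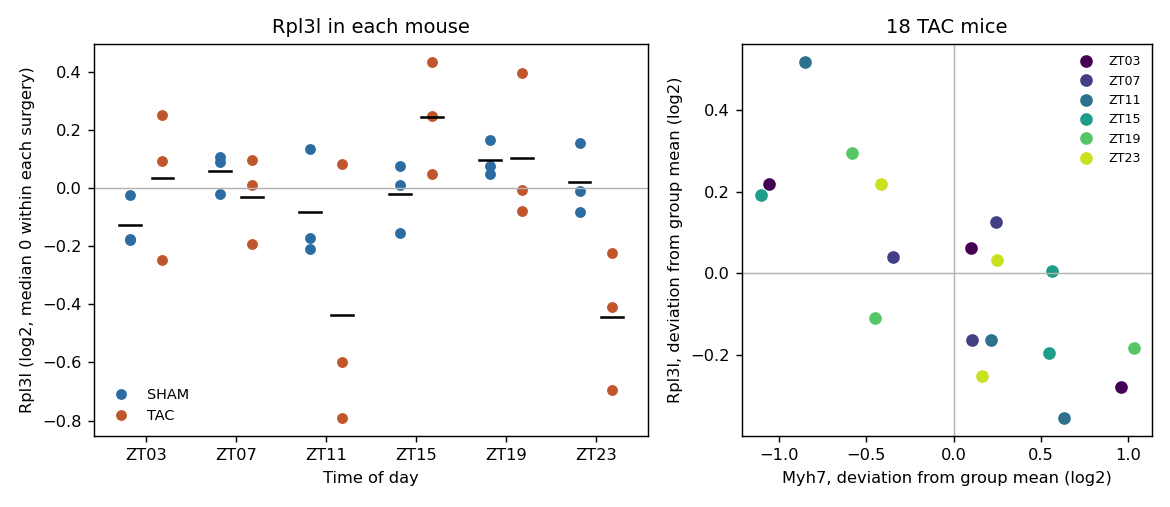
Left, Rpl3l (log2, median 0 within each surgery) in each mouse by time of day, with a bar at each group mean; right, Rpl3l against Myh7 in the 18 TAC mice, both as deviations from the group mean (log2), coloured by time. TAC mice spread from -0.79 to 0.43 and SHAM mice from -0.21 to 0.16, and on the right the points fall from upper left to lower right.

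Of the 41 core members, 0 passed for a slope on Myh7 (limma), where 3.43% of all genes did. Rpl14 alone of them had an unadjusted p under 0.05, a level that 15.3% of all genes reached. A positive slope was found in 30, where 43.5% of all genes had one, and the median slope was 0.02. Of 65 respiratory chain subunits 19 passed, of 74 mitochondrial ribosomal proteins 4, all with a negative slope, and of 14 proteasome core subunits 0. Rpl14, a large subunit protein, had the second smallest p of all members, with a slope of -0.07 ± 0.03 (adjusted p = 0.191), and Rps27l a slope of 0.09 ± 0.04 (adjusted p = 0.215). Marker genes of cell types moved with Myh7 as well. Of 11 activated fibroblast markers, 7 rose with Myh7 and 0 fell, with Postn, which encodes periostin, at 0.95 ± 0.08, and their mean ran from -0.58 to 0.96 over the TAC mice. Of 12 cardiomyocyte markers, 2 fell, Atp2a2 (the calcium pump of the sarcoplasmic reticulum) at -0.13 ± 0.03 and Ttn (titin) at -0.12 ± 0.03, and 11 had a negative slope. Their part in the slope of Rpl3l was not tested.

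Genes that act around the ribosome were looked at in the same way, beside the 5.58% of all genes that passed for a rhythm in SHAM and the 4.35% in TAC. Of 19 measured mRNAs of other TOP genes, 1 passed for a rhythm in SHAM, Naca (nascent polypeptide-associated complex) with an amplitude of 0.11 ± 0.03, a peak at ZT14.8 and an adjusted p of 0.0392, and 0 passed in TAC. Of 27 translation initiation factors 0 passed in SHAM and 2 in TAC, Eif5 (0.17 ± 0.03, peak ZT20.1), which sets off GTP hydrolysis at the start codon, and Eif3k (0.13 ± 0.03, peak ZT19.1), and the eIF3 subunit Eif3a rose with Myh7 at 0.11 ± 0.03.

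Of 40 ribosome biogenesis factors, 3 (7.5%) passed in SHAM. Polr1a, the largest subunit of RNA polymerase I, peaked at ZT7.7, Wdr43, a factor of the small subunit processome, at ZT6.8, and Nop56, a core protein of snoRNA particles, at ZT8.4, with amplitudes from 0.08 to 0.11. In TAC 2 others passed, Grwd1 with a peak at ZT19.8 and Tsr1, a maturation factor of the small subunit, with one at ZT20.3. None of the 40 passed for a difference in rhythm between the surgeries (limma), and 9 (22.5%) had an unadjusted p under 0.05, where 6.27% of all genes did.

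Of 24 genes of growth signalling to ribosomes, 5 (20.8%) passed in SHAM and 1 (4.17%) in TAC. Sesn1, an inhibitor of mTOR complex 1, had an amplitude of 0.49 ± 0.07 in SHAM with a peak at ZT12.7. Eif4ebp1, which holds back the cap-binding factor until mTOR phosphorylates it, had 0.17 ± 0.04 with a peak at ZT10.9. Pdcd4, an inhibitor of the helicase Eif4a, had 0.32 ± 0.07 with a peak at ZT9.2 in SHAM and 0.29 ± 0.07 with a peak at ZT7.3 in TAC, and passed in both. Of this list 0 passed for a difference in rhythm (limma), with 3 (12.5%) at an unadjusted p under 0.05. The amplitudes of the ribosomal protein genes themselves reached no more than 0.13 in SHAM and 0.14 in TAC.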

How the data were processed

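The deposited table holds the authors' processed values of 36 single-channel arrays for 22690 probe sets, on a log scale taken here as log2, per the values in the file. How probes were summarised and arrays normalized, and which log base was used, is not given in the sources used here. Per the labels' protocols, hearts were snap frozen, RNA was extracted with Trizol, and biotinylated cRNA was made from 6 ug of total RNA. Each probe set's median was within 5e-07 of 0 in each surgery, so the deposited values had been centred within SHAM and within TAC. Array medians ran from -0.036 to 0.027, and 0 pairs of arrays were identical. Groups came from the sample titles. The labels call the mice biological replicates and name no batch.

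Names came from the platform annotation. Of 22690, 20393 had 1 symbol (13 were controls and left out), 691 had several and 1606 had none. Probe sets of a gene were averaged. Tests used limma 3.58.1 in R 4.3.3 over all 36 arrays and all genes, with Benjamini-Hochberg adjustment and a threshold of 0.05: a 24 h cosine and sine per surgery, 12 group means, absolute deviations from group means, and the slope on the Myh7 deviation of TAC mice. Standard errors use 1 spread per gene over both surgeries. Pair correlations used 100000 permutations. Tests were checked on simulated data. There the test of deviations made more false calls than its threshold allows, so a version with 1 mean deviation per group was added, in which Rpl3l had an adjusted p of 0.383. Figures were drawn with matplotlib 3.10.9.

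Alternatives were quantile normalization, centring of arrays, array weights, robust empirical Bayes, a replicate block, other choices of probe sets, a filter on variation, leaving out arrays with other tissue, single arrays or replicate numbers, 1 surgery alone, Myh7 without time means, an atrial covariate, and deviations from group medians. Each probe set by itself, the deviation per group and leaving out arrays with adipocyte markers were added after the data were seen. The members, lists and tests were chosen with earlier results of these data known. Genes named with values are both genes of each paralog pair, the stalk proteins, the 3 members with the smallest p in each test and those that passed, the 3 highest and lowest ratios of standard deviations, and the 2 highest and lowest correlations with the other members. Of other lists, the first 3 that passed were eligible, and Myh7.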

Additional observations from a re-analysis of the deposited data

How the results depend on the processing

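Values with no level, 3 mice a group and probe sets open to other transcripts limit these results (median standard error of an amplitude 0.03). No value past its threshold turned its direction. For a rhythm in SHAM, 1 member passed. It was 3 under quantile normalization and with array weights, 2 without the arrays with thymus or airway markers, without those with adipocyte markers too, and with the SHAM arrays alone, and 0 with the probe set of largest SD, with probe sets without a suffix, and with each probe set by itself. For a rhythm in TAC, 0 passed, against 1 under quantile normalization, with the replicate block, with the probe set of largest SD, without the arrays with other tissue and with each probe set by itself, Rpl7l1 in each of these fits. For any shape in SHAM, 0 became 2 under quantile normalization, 8 with array weights and 1 with the SHAM arrays alone. For any shape in TAC, 1 became 21 with array weights and 0 with the TAC arrays alone and without the arrays with thymus, airway or adipocyte markers, and the time course difference 3 with array weights. Array weights raised the calls over all genes too, to 4969 for any shape in TAC. For the spread, 0 became 1 with genes of low SD left out and with each probe set by itself. For the slope on Myh7, 1 became 0 under quantile normalization. The cause of these moves was not tested.

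Leaving out single arrays or a replicate number gave 0 to 1 members for a rhythm in SHAM, 0 to 1 in TAC, 0 to 1 for any shape in SHAM, 0 to 2 in TAC, 0 for both differences, 0 to 4 for the spread and 0 to 1 for the slope. Pair correlations ranged from 0.640 to 0.861 and 0.137 to 0.598 for Rpl22 and Rpl22l1 (SHAM, then TAC), from -0.440 to 0.234 and 0.138 to 0.649 for Rps27 and Rps27l, from 0.502 to 0.591 and 0.397 to 0.713 for Rpl7 and Rpl7l1, and from -0.325 to 0.169 and -0.531 to -0.0301 for Rpl39 and Rpl39l. Rpl7 and Rpl7l1 passed in SHAM under quantile normalization (0.598), with arrays centred (0.610), without the arrays with other tissue (0.603) and with the replicate block (0.568), and in TAC without those arrays (0.755), without the arrays with adipocyte markers too (0.704) and without replicate 1 (0.713). With the probe set of largest SD r of this pair was 0.408 in SHAM and 0.338 in TAC. As deviations from group means r was 0.549 and 0.317, and none of these values passed. Correlations that had not passed turned their sign: for Rps27 and Rps27l in SHAM r became 0.0921 as deviations from group means, 0.0897 with arrays centred and 0.00169 with the probe set of largest SD, and for Rpl39 and Rpl39l in TAC 0.109 as deviations. Deviations of arrays with the same replicate number correlated at 0.038 on average (lowest -0.358) and those of other arrays at -0.019, so that not every pair deviated together and the numbers were not taken as pairs. As a hint from the data, 23 of 36 arrays correlated best with one of their own number, although most arrays compared had another number. Whether a replicate number marks a shared handling was not tested. The block changed no other count of members that passed.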
